A study of Mus musculus with 18 samples.

Results

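Glycolysis and hypoxia-regulated genes were followed as 34 named genes across all 18 libraries of the series. The members are the symbols of a fixed list, covering glucose uptake, the enzymes from hexokinase to lactate dehydrogenase, lactate transporters, oxygen sensing and hypoxia targets outside glycolysis, and all 34 had a row among the 35642 symbols of the deposited table. The cells, cultured and untreated, were of 2 lines from mouse pancreatic tumours, 1151 and 2838, which the series text derives from KPCY mice, and polyA RNA was sequenced. Among the alleles of those mice are Trp53 LSL-R172H/+ and the R26LSL-Yfp/LSL-Yfp reporter, recombined by Pdx1-Cre, a Cre recombinase under the Pdx1 promoter, and some also carry floxed MCU. The comparisons concern Mcu, the pore-forming subunit of the mitochondrial calcium uniporter. In line 1151 the labels give Mcu loss through Cre for both groups, 3 libraries with an empty vector (called the knockout-labelled libraries here) and 3 with MCU put back (the re-expressing libraries). Both 1151 populations were kept under puromycin selection. In line 2838 there were 2 clones labelled Mcu wild type (15 and 22), which carried an empty vector, and 2 clones labelled CRISPR knockout (17 and 42), for which the labels name no vector, with 3 libraries each. Every clone is a single isolate, so a clone's own traits and its label cannot be told apart. The labels do not tell whether replicate libraries are independent cultures, and the spread that p-values between them rest on may be technical.

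Glycolysis splits glucose into pyruvate in the cytosol with a net gain of ATP. Glucose enters through GLUT transporters, hexokinase and phosphofructokinase commit it to the pathway, and lactate dehydrogenase with the monocarboxylate transporters disposes of pyruvate as lactate. Hypoxia-inducible factor 1 alpha (HIF-1α) is hydroxylated by the prolyl hydroxylases of the Egln family and degraded when oxygen is present. When oxygen is short it binds hypoxia response elements in many glycolytic genes, in the Egln genes themselves and in genes for pH control, collagen hydroxylation and mitochondrial adaptation. Pancreatic ductal tumours are known for poor oxygen supply and for high glucose use.

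The core of a hypoxia response element is ACGTG or GCGTG, and it was searched on both strands (CACGT and CACGC on the other strand) in RefSeq promoters, 300 bases from 250 before to 50 after each annotated start (GRCm38.p6, the mm10 build). Promoters were at hand for 31 members. Slc2a3, Ndrg1 and Bhlhe40 had none in that table. A core stood in at least 1 promoter of 28 of the 31 members (90.3%), against 46.7% of all genes in the table and 69.5% of the genes that were expressed enough to be tested in line 1151. Counted by promoter, it stood in 37 of 45 member promoters (82.2%). The share was 43.8% of all promoters and 63.2% of those of genes tested in 1151. No test was made, as the list includes genes picked as hypoxia-regulated. The 4 promoters below belong to the members with the largest rises (Slc16a3 and P4ha2) and the largest falls (Car9 and Aldoc) in line 1151, each read 5′ to 3′ on the gene's strand, with the core letters in capitals.
Slc16a3, chr11:120948817-120949116, plus strand: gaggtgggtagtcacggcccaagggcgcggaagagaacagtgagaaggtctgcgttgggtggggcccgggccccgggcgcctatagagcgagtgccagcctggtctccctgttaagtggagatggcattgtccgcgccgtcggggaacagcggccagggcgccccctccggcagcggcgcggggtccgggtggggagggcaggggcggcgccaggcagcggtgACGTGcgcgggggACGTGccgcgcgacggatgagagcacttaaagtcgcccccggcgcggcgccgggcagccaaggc
P4ha2, chr11:54100674-54100973, plus strand: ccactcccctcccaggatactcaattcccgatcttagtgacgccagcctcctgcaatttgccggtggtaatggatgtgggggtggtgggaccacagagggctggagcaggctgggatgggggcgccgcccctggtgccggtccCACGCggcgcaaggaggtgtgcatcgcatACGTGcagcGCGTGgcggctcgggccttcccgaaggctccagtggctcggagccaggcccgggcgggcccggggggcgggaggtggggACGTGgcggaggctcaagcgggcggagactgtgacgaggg
Car9, chr4:43506776-43507075, plus strand: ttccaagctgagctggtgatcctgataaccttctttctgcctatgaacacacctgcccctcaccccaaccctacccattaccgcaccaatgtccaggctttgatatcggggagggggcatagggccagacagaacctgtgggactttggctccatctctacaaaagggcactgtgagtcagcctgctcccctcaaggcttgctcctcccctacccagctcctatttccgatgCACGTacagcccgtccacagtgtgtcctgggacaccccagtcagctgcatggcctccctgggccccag
Aldoc, chr11:78322823-78323122, plus strand: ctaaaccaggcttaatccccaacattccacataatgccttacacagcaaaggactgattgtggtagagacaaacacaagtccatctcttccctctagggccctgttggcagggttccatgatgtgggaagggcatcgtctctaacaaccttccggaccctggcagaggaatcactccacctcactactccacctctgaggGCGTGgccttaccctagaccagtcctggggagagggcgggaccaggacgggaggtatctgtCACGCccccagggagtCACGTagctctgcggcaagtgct
The Slc16a3 window held 2 cores, that of P4ha2 4, that of Car9 1 and the Aldoc window shown 3. A second Aldoc promoter, chr11:78323948-78324247, held 1. Cores were found for 12 of 13 members higher in the knockout-labelled 1151 libraries, 8 of 8 lower members and 7 of 9 members that did not pass, so the letters occurred in promoters of genes that moved either way. A match is a description of the sequence and not a measured binding site.

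Batch 1 of the labels holds all of line 1151 and batch 2 all of line 2838, and for that reason no level was tested across lines. The values were TPM, transcript abundances scaled to length and library total, and keep no read depth. Wild-type clone 22 replicate 3 stood apart, with 10760 genes at 1 TPM or more against 11207 to 11507 in the other libraries, and a 90th percentile of 31.2 TPM against 38.4 to 46.0. Mcu RNA gave no check of the labels in line 1151 (15.0 ± 1.63 TPM in knockout-labelled and 14.3 ± 1.06 TPM in re-expressing libraries) and went against the label of clone 17 (119 ± 4.79 TPM, against 75.2 ± 6.44 and 83.3 ± 20.8 TPM in clones 15 and 22 and 11.4 ± 0.888 TPM in clone 42). Ductal epithelial markers were abundant, their 8 genes summing to between 4875 and 7426 TPM, led by Krt18 and Krt8, while Epcam stayed at or under 1.67 TPM. All 8 fibroblast markers were under 1 TPM in the mean of all libraries, with sums of at most 1.05 TPM. Of the 7 macrophage markers 5 averaged under 1 TPM and Adgre1 was listed at 0 throughout. The list was led by Cd14, and its sums were 32.0 to 35.0 TPM in the knockout-labelled and 64.9 to 72.7 TPM in the re-expressing 1151 libraries. Of the 5 endothelial markers 4 averaged under 1 TPM in either 1151 group. Their sums were 8.48 to 9.08 TPM, led by Kdr, in the knockout-labelled libraries. In the re-expressing libraries the sums were 5.65 to 6.53 TPM, led by Cdh5. Kdr averaged 8.51 TPM in the knockout-labelled and 0.767 TPM in the re-expressing libraries, and Cdh5 0.00568 and 4.925 TPM. T cell (led by Trac), B cell, acinar (led by Cela1), islet and erythroid markers summed to at most 13.5, 0.27, 29.3, 0.04 and 3.90 TPM in any library. Whether any of these has a part in the results was not tested.

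In line 1151, 13 of the 32 members tested were higher and 8 lower in the knockout-labelled libraries (limma on log2(TPM + 1), adjusted p under 0.05 over all genes tested). The rises were in both hexokinases, Pfkfb3 and Pfkfb4, 4 genes of lower glycolysis, the lactate transporter Slc16a3, Hif1a, both collagen hydroxylases and Mxi1. The falls were in 2 phosphofructokinase isoforms, Aldoc, Ldha, the lactate transporter Slc16a1, Egln3, Ankrd37 and Car9. Most genes of the cell differed between these populations: 61% of all genes tested were called (34% higher and 27% lower), against 65.6% of the members. Libraries of the 2 groups did not overlap for 17 members that were higher (37.4% of all genes) and 8 that were lower (29.8%). Changes of at least 1 on the log2 scale were called for 7 of 32 members (21.9%) and for 13.5% of all genes. The median change was 0.19 over the members and 0.055 over all genes. Slc2a3 and Ldhb stayed under 0.5 TPM in every library and were not tested. In bulk RNA, a change in the share of cells that express a gene and a change per cell cannot be told apart. With the spread between 2838 clones in place of the spread between libraries, limma called 0 of the 32 members in 1151 (2.15% of all genes).

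**Figure D1:**
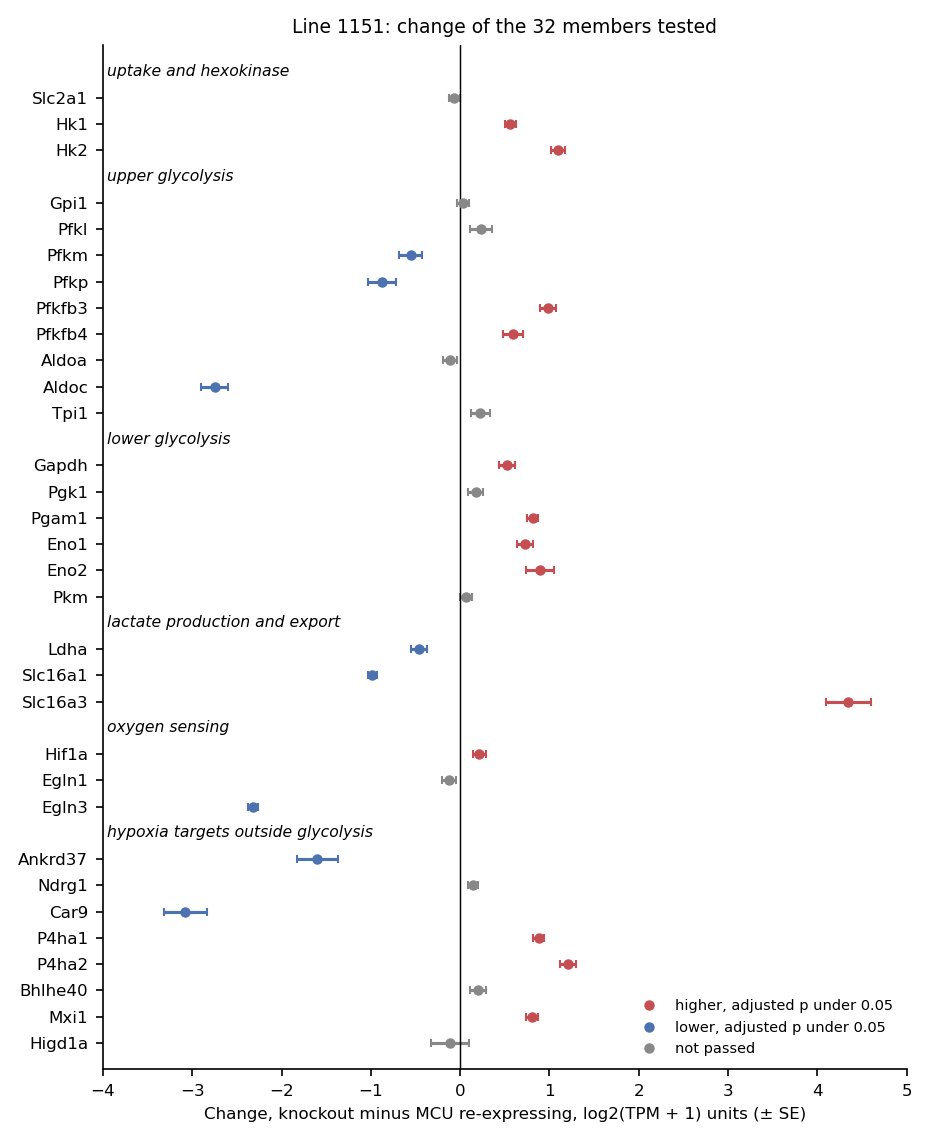
Change of the 32 tested members in line 1151, knockout-labelled minus re-expressing libraries, in log2(TPM + 1) units (points, with SE as bars, 3 libraries per group), grouped by role. Slc16a3 lies far to the right at 4.35 and Car9 farthest to the left at -3.08, and most lower glycolysis genes lie to the right of 0.

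Glucose uptake and its first phosphorylation did not move as one. Slc2a1, the GLUT1 transporter and the only glucose carrier of the list with appreciable RNA, was 87.4, 82.9 and 85.4 TPM in the knockout-labelled and 94.8, 83.5 and 89.6 TPM in the re-expressing libraries, overlapping ranges that did not pass (log2 change -0.07, SE 0.06, adjusted p = 0.39). Hk2, the inducible hexokinase of tumours (chromosome 6, 82725025 to 82774454, minus strand, mm10), was 23.7, 24.2 and 27.3 TPM against 11.4, 10.5 and 11.5 TPM. Every knockout-labelled library was thus above every re-expressing one, by 2.25-fold in the mean (log2 change 1.10, SE 0.08, adjusted p = 3.85e-05). Hk1, the constitutive hexokinase, was 81.7, 85.3 and 91.8 TPM against 60.1, 57.1 and 56.8 TPM, without overlap (log2 change 0.56, SE 0.06, adjusted p = 2.48e-04). Hk1 lies on chromosome 10, where the median gene rose by 0.34, and after centring each library on the median of each chromosome its change was 0.17 with an adjusted p of 0.0773.

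Among isoforms of phosphofructokinase, the main control point of glycolysis, Pfkp and Pfkm were lower in knockout-labelled libraries and Pfkl did not pass. Pfkp is the platelet-type subunit (chromosome 13, 6579768 to 6648777, minus strand) and stood at 10.5, 9.89 and 15.2 TPM in knockout-labelled and 20.2, 23.5 and 22.8 TPM in re-expressing libraries, a fall to below the other group in all 3 (log2 change -0.87, SE 0.16, adjusted p = 0.00262). Pfkm, the muscle-type subunit, was 28.5, 28.3 and 29.7 TPM against 51.7, 42.4 and 35.7 TPM, also without overlap (log2 change -0.55, SE 0.13, adjusted p = 0.0076), although the median gene of its chromosome 15 rose by 0.45, and its change was -1.04 after centring per chromosome. Pfkl, the liver-type subunit and the most abundant of the family, was 93.9, 94.7 and 98.1 TPM against 93.3, 66.4 and 86.1 TPM and did not pass (log2 change 0.23, SE 0.12, adjusted p = 0.134). The enzymes that make and remove the activator fructose 2,6-bisphosphate moved both ways, and the 2 of them among the members rose. Pfkfb3, whose kinase activity predominates, was 12.2, 10.4 and 11.3 TPM against 5.41, 4.92 and 5.33 TPM (log2 change 0.98, SE 0.09, adjusted p = 9.52e-05). Pfkfb4 was 6.86, 6.36 and 5.34 TPM against 4.11, 3.34 and 3.83 TPM, a smaller separation (log2 change 0.59, SE 0.12, adjusted p = 0.00395) that missed the threshold in one fit of all 18 libraries (adjusted p = 0.0588). Of their relatives outside the members, Pfkfb2 fell from 25.3 ± 0.297 to 12.5 ± 0.590 TPM (log2 change -0.97, SE 0.06, adjusted p = 2.47e-05), and Pfkfb1 did not pass (log2 change -0.34, SE 0.14, adjusted p = 0.0736).

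Aldolase cleaves fructose 1,6-bisphosphate. Aldoc, the brain-type isoform (chromosome 11, 78322968 to 78327781, plus strand), stood at 3.83, 4.94 and 6.28 TPM in knockout-labelled and 42.1, 35.5 and 39.4 TPM in re-expressing libraries. The groups were far apart, with means 7.77-fold lower in the knockout-labelled libraries (log2 change -2.75, SE 0.15, adjusted p = 1.22e-05). Aldoa, the ubiquitous isoform, was 1126, 1188 and 1316 TPM against 1363, 1251 and 1297 TPM, overlapping and not passed (log2 change -0.11, SE 0.08, adjusted p = 0.267). Gpi1, glucose 6-phosphate isomerase, ranged from 286 to 329 TPM over the 6 libraries and did not pass. Tpi1, triose phosphate isomerase, was 829.9, 893 and 1108 TPM against 807, 799 and 798 TPM, separate but wide in the first group, and did not pass (log2 change 0.22, SE 0.11, adjusted p = 0.112).

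In lower glycolysis, from Gapdh to Pkm, 4 of 6 members rose and none fell, where 34% of all genes were higher and 27% lower. Gapdh, which oxidises glyceraldehyde 3-phosphate and was the most abundant member, was 6324, 6736 and 7115 TPM against 4785, 4640.4 and 4581 TPM. The groups did not overlap (log2 change 0.52, SE 0.09, adjusted p = 0.0019), but the median gene of its chromosome 6 rose by 0.27 and after centring per chromosome the change was 0.19 with an adjusted p of 0.132. Eno1, the main enolase (chromosome 4, 150236721 to 150248879, plus strand), was 2386, 2269.7 and 1953 TPM against 1367, 1315 and 1286 TPM, again without overlap (log2 change 0.73, SE 0.09, adjusted p = 4.54e-04). Eno2, the neuronal enolase, stayed below 5 TPM, at 4.02, 3.49 and 4.21 TPM against 2.15, 1.67 and 1.17 TPM (log2 change 0.90, SE 0.16, adjusted p = 0.0022). Pgam1, phosphoglycerate mutase, was 1557, 1575 and 1673 TPM against 909.5, 936 and 891 TPM, the knockout-labelled libraries all being higher (log2 change 0.81, SE 0.06, adjusted p = 4.87e-05). Its chromosome 19 had a median change of 0.52, the largest of those that carry members, and after centring per chromosome the change of Pgam1 was 0.22 (adjusted p = 0.018) and that of Eno2 0.56 (adjusted p = 0.016). The near-identical copy Pgam1-ps2 was listed at 0, 0 and 362 TPM in the knockout-labelled and 183, 186 and 187 TPM in the re-expressing libraries. How reads were divided between Pgam1 and this copy was not tested. The 2 together summed to 1722 ± 271 TPM against 1098 ± 22.3 TPM. Pgk1, phosphoglycerate kinase, was 873, 913 and 1064 TPM against 849.6, 822 and 839.9 TPM and did not pass. Pkm, pyruvate kinase, was 2264, 2253 and 2352 TPM against 2259, 2171 and 2116 TPM and did not pass either (log2 change 0.07, SE 0.07, adjusted p = 0.4). Pklr, a further pyruvate kinase gene outside the members, fell from 54.2 ± 15.4 to 16.1 ± 4.42 TPM (log2 change -1.68, SE 0.25, adjusted p = 0.00101).

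Genes for making and exporting lactate gave the widest spread of all roles. Ldha, which converts pyruvate to lactate (chromosome 7, 46841475 to 46855627, plus strand), stood at 1299.7, 1326 and 1553 TPM in knockout-labelled and 1955, 1892 and 1893 TPM in re-expressing libraries. All 3 knockout-labelled libraries were lower (log2 change -0.46, SE 0.09, adjusted p = 0.00305). Slc16a1, the monocarboxylate transporter MCT1 (chromosome 3, 104638668 to 104658462, plus strand), was 49.8, 47.0 and 49.9 TPM against 95.5, 99.9 and 97.3 TPM, a fall to 0.501 of the re-expressing mean with tight replicates (log2 change -0.98, SE 0.05, adjusted p = 1.00e-05). Slc16a3, the hypoxia-induced lactate exporter MCT4 (chromosome 11, 120948480 to 120960868, plus strand), was 28.8, 31.1 and 45.8 TPM against 0.445, 0.505 and 1.45 TPM. It went from near absence to 44.1-fold more, or 74.2-fold without re-expressing replicate 3, the largest change of any member (log2 change 4.35, SE 0.25, adjusted p = 1.47e-05).

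The members of the oxygen-sensing role did not move as one. Hif1a RNA was 64.1, 58.1 and 57.4 TPM in knockout-labelled and 47.7, 54.7 and 52.1 TPM in re-expressing libraries, a small separation just past the threshold (log2 change 0.21, SE 0.07, adjusted p = 0.04). That call was lost with no expression filter, median-of-ratios scaling, quantile normalization, no variance trend, the replicate block (adjusted p = 0.0931), one fit of all 18 libraries (adjusted p = 0.567) and without any of 4 single libraries: knockout-labelled replicates 1 and 2 and re-expressing replicates 1 and 3 (adjusted p between 0.0691 and 0.131). HIF-1α is regulated largely as protein, which was not measured. Egln3, the prolyl hydroxylase that HIF itself induces (chromosome 12, 54178981 to 54203860, minus strand), stood at 9.26, 9.78 and 9.49 TPM against 51.4, 51.4 and 51.8 TPM, so the groups were far apart with hardly any spread (log2 change -2.32, SE 0.06, adjusted p = 4.17e-07). Egln1, the main oxygen sensor in most cells, ranged from 30.8 to 37.5 TPM and did not pass.

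Among the 8 hypoxia targets outside glycolysis, 3 rose, 2 fell and 3 did not pass (62.5% called, against 61% of all genes). Car9, carbonic anhydrase IX, a cell surface enzyme of pH control and a standard hypoxia marker (chromosome 4, 43506966 to 43513729, plus strand), stood at 2.30, 0.779 and 0.750 TPM in knockout-labelled and 16.5, 17.1 and 18.4 TPM in re-expressing libraries. The means differed 13.6-fold, or 22.7-fold without knockout-labelled replicate 1, with no overlap (log2 change -3.08, SE 0.24, adjusted p = 5.80e-05). Ankrd37, an ankyrin-repeat protein, was 2.87, 2.54 and 4.48 TPM against 10.6, 9.57 and 16.1 TPM, also lower in every knockout-labelled library (log2 change -1.60, SE 0.23, adjusted p = 9.26e-04). P4ha1 and P4ha2 encode the catalytic subunits of collagen prolyl 4-hydroxylase. P4ha2 (chromosome 11, 54100095 to 54131665, plus strand) was 26.2, 26.6 and 28.9 TPM against 11.9, 10.0 and 11.8 TPM (log2 change 1.21, SE 0.09, adjusted p = 3.43e-05). P4ha1 was 44.0, 40.4 and 41.5 TPM against 23.4, 21.5 and 22.2 TPM (log2 change 0.88, SE 0.06, adjusted p = 3.72e-05). Both hydroxylase genes were higher in all 3 knockout-labelled libraries. Mxi1, an antagonist of MYC, was 33.1, 30.6 and 30.1 TPM against 18.1, 17.4 and 16.8 TPM (log2 change 0.81, SE 0.07, adjusted p = 6.60e-05). Mxi1 lies on chromosome 19 and P4ha1 on chromosome 10, and after centring per chromosome their changes were 0.21 (adjusted p = 0.0427) and 0.49 (adjusted p = 6.15e-04). Ndrg1, Bhlhe40 and Higd1a did not pass. Ndrg1, named here after its values were seen, had a change of 0.14 that became -0.35 with an adjusted p of 0.00256 after centring per chromosome, since its chromosome 15 had a median change of 0.45.

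**Figure D2:**
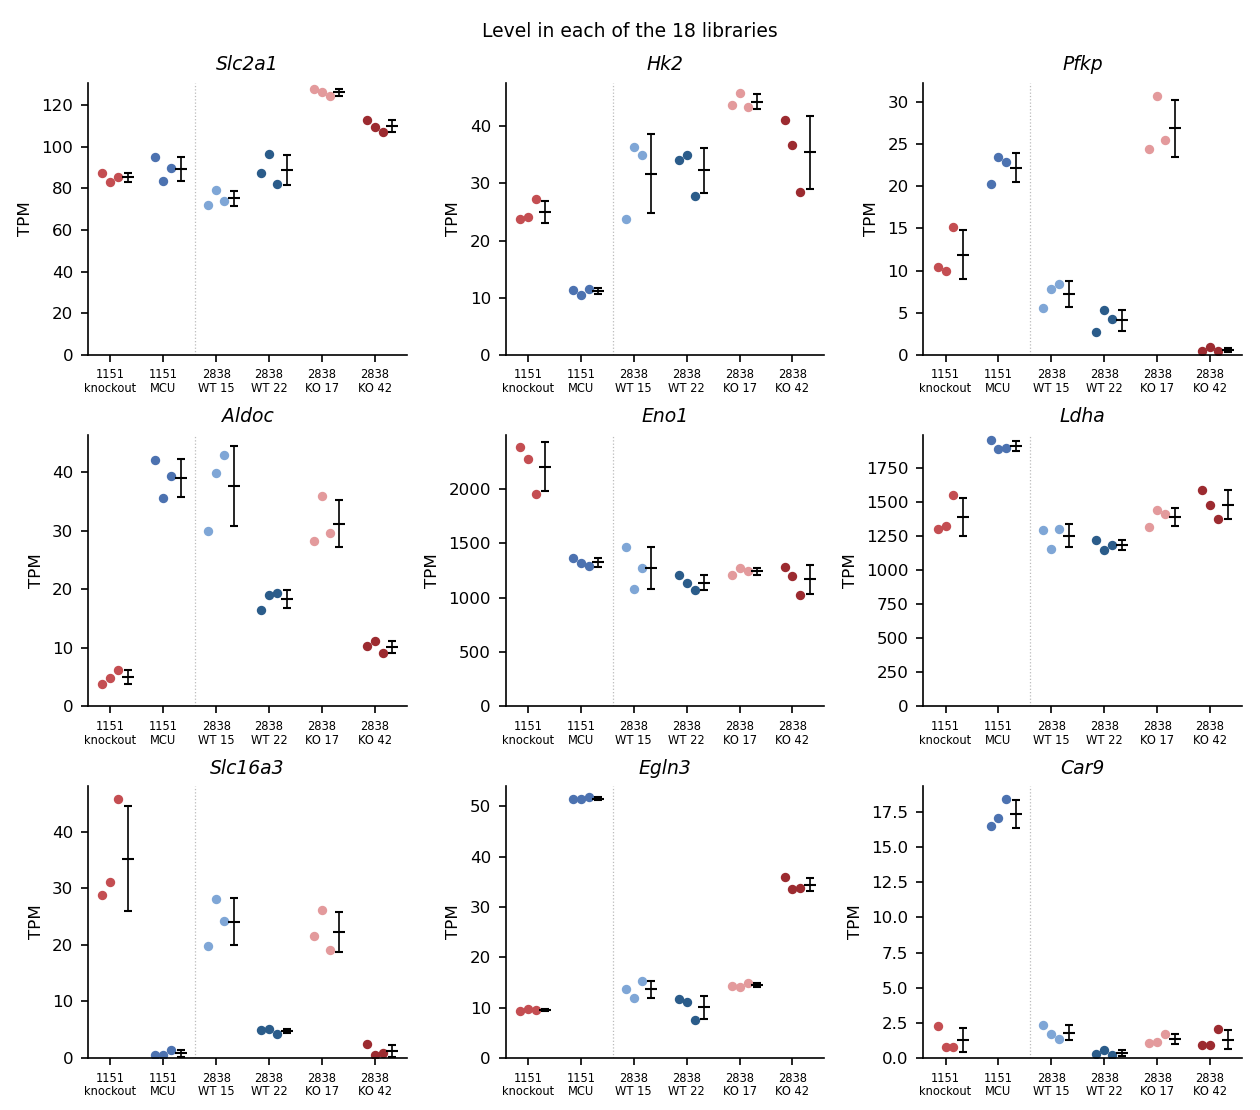
TPM of 9 members in each of the 18 libraries (points), with the mean and SD of each group (n = 3 libraries) as a bar beside them, with a dotted line between the 2 lines. Slc16a3, Aldoc, Egln3 and Car9 separate the 1151 groups, while Pfkp, Aldoc and Slc16a3 differ between 2838 clones that carry the same label.

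Shares within an enzyme family do not depend on the scaling of a library. In 1151 the share of Slc16a3 in the summed RNA of the 2 lactate transporters was 36.7, 39.8 and 47.9% in knockout-labelled libraries and 0.464, 0.503 and 1.47% in re-expressing libraries. The sum over both transporters thus held far more MCT4 RNA in every knockout-labelled library. Pfkl made up 70.2 ± 1.39% of phosphofructokinase RNA against 55.4 ± 4.75%, Pfkm 21.2 ± 0.355% against 29.3 ± 4.04% and Pfkp 8.66 ± 1.73% against 15.3 ± 2.80% (SD, n = 3). Hk2 made up 22.5 ± 0.415% of the summed RNA of Hk1 and Hk2 against 16.1 ± 0.666%. Aldoc made up 0.409 ± 0.0678% of that of Aldoa and Aldoc against 2.90 ± 0.123%. In each of these 6 shares the groups did not overlap, and each had a two-sided exact permutation p of 0.1, the smallest that 3 against 3 libraries allow, or 0.117 after adjustment over 7 shares. The seventh, the share of Eno2 in the summed RNA of Eno1 and Eno2, was 0.179 ± 0.0323% against 0.125 ± 0.0332% with overlapping groups (exact permutation p = 0.2). Eno3, a further enolase outside the members, is not in that sum. It was 31.1 ± 3.82 TPM in knockout-labelled and 16.5 ± 0.799 TPM in re-expressing libraries (log2 change 0.87, SE 0.10, adjusted p = 2.84e-04). Lactate dehydrogenase RNA was almost wholly Ldha in both groups, with Ldhb at or below 0.484 TPM.

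**Figure D3:**
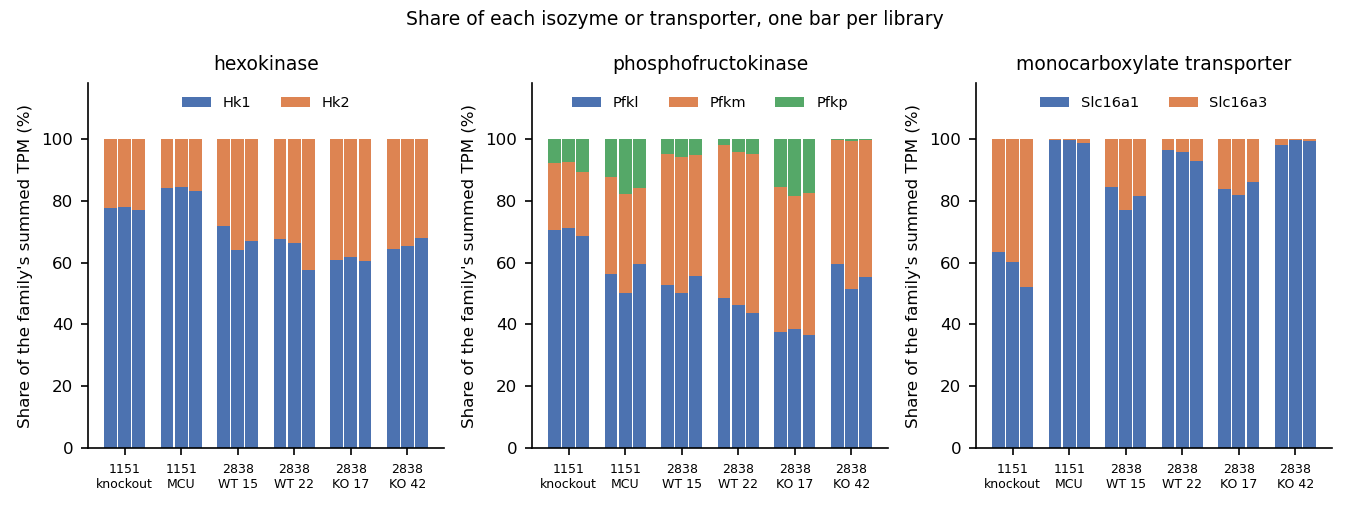
Share of each isozyme in the summed TPM of hexokinase, phosphofructokinase and the 2 monocarboxylate transporters, in percent, one stacked bar for each of the 18 libraries. Slc16a3 makes up 36.7 to 47.9% of transporter RNA in the knockout-labelled 1151 libraries and at most 1.47% in the re-expressing ones.

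The 17 enzyme members from hexokinase to lactate dehydrogenase summed to 17212, 17735 and 18694 TPM in the knockout-labelled and 14895, 14349 and 14255 TPM in the re-expressing 1151 libraries, or 1.79% and 1.45% of the library in the mean. This sum is a description with no test, as the genes were chosen with earlier results known. It leaves out isozymes that are not members, such as Pklr, Eno3 and Hkdc1. Gapdh alone added 2056 TPM, Eno1 879.9 TPM and Pgam1 689 TPM, while Ldha fell by 519.97 TPM. Gapdh held 37.6% of the sum in the knockout-labelled and 32.2% in the re-expressing mean, and Ldha 7.79% and 13.2%. Aldoa went from 8.99% of the sum in the re-expressing to 6.77% in the knockout-labelled mean and Pkm from 15.0% to 12.8%, while Eno1 went from 9.12% to 12.3% and Pgam1 from 6.29% to 8.96%.

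Genes of neighbouring pathways, listed apart from the members, also moved both ways in 1151. For all genes tested, 34% were higher and 27% lower, or 61% called. Of 16 other glycolytic genes tested, 6 were higher and 6 lower (75% called). Fbp2, a fructose bisphosphatase that acts in the reverse direction, went from 12.6 ± 0.796 TPM in re-expressing to 0.276 ± 0.233 TPM in knockout-labelled libraries (log2 change -3.43, SE 0.15, adjusted p = 4.56e-06). Slc2a5, the fructose transporter GLUT5, went the other way, from 0.817 ± 0.685 to 9.56 ± 1.55 TPM (log2 change 2.60, SE 0.29, adjusted p = 2.55e-04), and Slc2a6 fell from 4.96 ± 0.659 to 0.374 ± 0.0791 TPM (log2 change -2.11, SE 0.12, adjusted p = 1.41e-05). In the pentose phosphate pathway, which branches off glucose 6-phosphate, 3 of 10 were higher and 4 lower (70% called). Pgls, its lactonase, had the largest change there, from 145 ± 6.60 to 71.6 ± 6.49 TPM (log2 change -1.01, SE 0.08, adjusted p = 5.17e-05), while Prps2 and H6pd rose by 0.66 and 0.49 on the log2 scale. In glycogen metabolism 1 of 8 was higher and 3 lower (50% called), with the phosphorylase Pygb at -0.75, Ugp2 at -0.70 and the branching enzyme Gbe1 at 0.47 on the log2 scale.

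Pyruvate fate genes were called lower in 8 and higher in 3 of 18, or 61.1% called against 61% of all genes. Pdk3 was the exception in size. This kinase, which inhibits pyruvate dehydrogenase, went from 0.854 ± 0.114 TPM in re-expressing to 17.2 ± 0.155 TPM in knockout-labelled libraries (log2 change 3.30, SE 0.09, adjusted p = 5.45e-07). Pdk4, another kinase of that family, rose by 1.21 on the log2 scale and Gpt2, an alanine aminotransferase, changed by -0.80. Among regulators of HIF, 9 of 18 were higher and 2 lower (61.1% called), where 34% of all genes were higher and 27% lower. Arnt2, a partner of HIF α subunits, went from 0.123 ± 0.0298 to 4.04 ± 0.0995 TPM (log2 change 2.17, SE 0.10, adjusted p = 5.63e-06), Cited2, a HIF-induced inhibitor of HIF transactivation, from 53.9 ± 2.14 to 117 ± 5.15 TPM (log2 change 1.10, SE 0.06, adjusted p = 1.01e-05), and the coactivator Ep300 rose by 0.94 on the log2 scale.

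Of 35 other hypoxia targets 17 were higher and 13 lower (85.7% called), where 34% and 27% of all genes were (61% called). Of the 35, 14 were called with a change of at least 1 on the log2 scale, as were 13.5% of all genes. How this list differs from the others was not tested. Dusp1, a MAP kinase phosphatase, went from 5.71 ± 0.441 to 51.1 ± 3.26 TPM (log2 change 2.96, SE 0.08, adjusted p = 6.49e-07). Selenbp1, a methanethiol oxidase, fell from 16.6 ± 1.28 to 2.56 ± 0.481 TPM (log2 change -2.31, SE 0.12, adjusted p = 1.03e-05). Of 11 glucose-sensing factors and targets, 7 were higher and 1 lower (72.7% called). Arrdc4, an arrestin-domain protein induced by glucose through carbohydrate-response factors, was listed at 3.60, 3.55 and 5.31 TPM in the knockout-labelled libraries and at 0 in the other 15. Myc rose from 52.8 ± 2.74 to 136 ± 16.3 TPM (log2 change 1.34, SE 0.10, adjusted p = 3.71e-05) and Mycl by 1.43 on the log2 scale. Of 9 genes of amino acid and one-carbon branches, 3 were higher and 4 lower (77.8% called). The glycerol 3-phosphate dehydrogenase Gpd1 changed by -2.02, its relative Gpd1l by -1.09 and the serine hydroxymethyltransferase Shmt2 by 0.91 on the log2 scale. Over the 8 lists together 47 of 122 genes tested were higher and 40 lower (71.3% called, against 61% of all genes).

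In line 2838 no member passed a test along the knockout label. Comparing the means of clones 17 and 42 with those of clones 15 and 22, limma called 0 of 32 members (0.0763% of all genes were called), with 3 members at an unadjusted p under 0.05, against 5.61% of all genes. Requiring each knockout-labelled clone to differ from each wild-type-labelled clone the same way also gave 0 members (1.01% of all genes). Without wild-type clone 22 replicate 3 this second rule called Slc2a1 as higher and Pfkfb3 as lower, against 3.88% of all genes, and Slc2a1 was also called without clone 15 replicate 1 or clone 22 replicate 2. Pair by pair, clone 17 had 2 members higher and 2 lower than clone 15 (5.18% and 5.53% of all genes), and 7 higher and none lower than clone 22 (3.79% and 2.7%). Clone 42 had 2 higher and 5 lower than clone 15 (6.07% and 6.22%), and 6 higher and 3 lower than clone 22 (5.78% and 4.54%). These 4 comparisons share clones with one another. None of the 120 genes tested from the 8 neighbouring lists passed either rule, with 10 at an unadjusted p under 0.05 on clone means.

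Slc2a1 came nearest to a difference along the label. It was 71.9, 79.2 and 74.1 TPM in wild-type clone 15 and 87.3, 96.5 and 82.1 TPM in clone 22, and 128, 126 and 124 TPM in knockout-labelled clone 17 and 113, 109.5 and 107 TPM in clone 42. Every knockout-labelled library was above every wild-type-labelled one (log2 difference of clone means 0.53, SE 0.21, unadjusted p = 0.0314, adjusted p = 0.807). Clone 17 differed from clone 15 by 0.74 (adjusted p = 6.33e-04) and from clone 22 by 0.51 (adjusted p = 0.00929), and clone 42 from clone 15 by 0.54 (adjusted p = 0.00304) and from clone 22 by 0.31 (adjusted p = 0.0605), so 1 of the 4 pairs missed the threshold. Its partner Slc2a3, GLUT3, stayed at or under 0.329 TPM in all 18 libraries. Ldha was 1296, 1153 and 1303 TPM and 1221, 1145 and 1183 TPM in the wild-type-labelled clones 15 and 22, and 1316, 1443 and 1413 TPM and 1588, 1478 and 1377 TPM in clones 17 and 42. The 2 labels were separate only by the gap between 1303 and 1316 TPM (log2 difference of clone means 0.24, SE 0.21, unadjusted p = 0.275, adjusted p = 0.999). These 2 were the only members whose labels did not overlap in any library, both higher under the knockout label (3.53% of all genes), and none was lower (1.52% of all genes).

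Pfkfb3 and Egln3 also had an unadjusted p under 0.05 on clone means. Pfkfb3 was 7.995, 10.4 and 11.3 TPM in clone 15, 7.81, 8.35 and 3.97 TPM in clone 22, 5.32, 4.64 and 4.36 TPM in clone 17 and 3.71, 3.31 and 3.58 TPM in clone 42. The knockout-labelled clones were below the wild-type-labelled ones except for the library of clone 22 that stands apart, at 3.97 TPM (log2 difference of clone means -0.81, SE 0.33, unadjusted p = 0.0335, adjusted p = 0.807). Egln3 was 13.6, 11.9 and 15.3 TPM in clone 15, 11.8, 11.0 and 7.48 TPM in clone 22, 14.3, 14.2 and 14.9 TPM in clone 17 and 35.9, 33.7 and 33.7 TPM in clone 42. Only clone 42 was clearly high, while clone 17 overlapped clone 15 (log2 difference of clone means 0.89, SE 0.38, unadjusted p = 0.0424, adjusted p = 0.862).

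More members passed between single clones than between labels, although the first tests rest on the spread between libraries and the second on the spread between clones. Among the 4 clones 12 of 32 members differed by the moderated F test at an adjusted p under 0.05 (37.5%, against 21.2% of all genes). Between the 2 wild-type-labelled clones, 3 members were lower in clone 22 and none higher (1.34% and 0.577% of all genes, 1.92% either way), where the median difference of all genes was -0.16. Between the 2 knockout-labelled clones, 2 members were higher and 5 lower in clone 42 (8.23% and 8.99% of all genes, 17.2% either way). Without wild-type clone 22 replicate 3 these counts were 7 and 14, against 6.86% and 41.5% of all genes.

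Slc16a3, so different in 1151, varied most with Pfkp. It was 19.8, 28.2 and 24.1 TPM in clone 15 and 4.91, 5.09 and 4.29 TPM in clone 22 (log2 difference -2.11, SE 0.28, adjusted p = 0.0042), and 21.5, 26.1 and 19.1 TPM in clone 17 and 2.50, 0.514 and 0.818 TPM in clone 42 (log2 difference -3.44, SE 0.28, adjusted p = 1.77e-05). Clones 15 and 17 overlapped and clones 22 and 42 were both lower, although each of these pairs joins a wild-type and a knockout label. Aldoc had the same order, with 29.9, 39.9 and 43.0 TPM in clone 15, 16.5, 19.1 and 19.4 TPM in clone 22 (log2 difference -0.99, SE 0.16, adjusted p = 0.0117), 28.2, 35.9 and 29.6 TPM in clone 17 and 10.3, 11.2 and 9.13 TPM in clone 42 (log2 difference -1.52, SE 0.16, adjusted p = 1.28e-04). These 2 genes were the members lower in both second clones, which held for 0.348% of all genes. The clone 22 call of Aldoc was lost under median-of-ratios scaling, quantile normalization and centring per chromosome, and without clone 15 replicate 2 or 3 or clone 22 replicate 1.

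Pfkp had the widest range within one label. It was 24.4, 30.7 and 25.4 TPM in clone 17 and 0.515, 0.892 and 0.474 TPM in clone 42, a 42.8-fold difference of means (log2 difference -4.10, SE 0.23, adjusted p = 1.89e-06), with 5.54, 7.76 and 8.37 TPM in clone 15 and 2.73, 5.28 and 4.27 TPM in clone 22 between them. Clone 17 was thus above, and clone 42 below, all wild-type-labelled libraries. The Pfkp share of phosphofructokinase RNA was 17.1 ± 1.49% in clone 17, 0.578 ± 0.233% in clone 42, 5.33 ± 0.483% in clone 15 and 3.76 ± 1.52% in clone 22. Pfkm was 74.1, 71.6 and 66.8 TPM in clone 17 and 51.0, 50.7 and 43.1 TPM in clone 42 (log2 difference -0.55, SE 0.16, adjusted p = 0.0368), a call that was lost without any single library of these 2 clones or clone 15 replicate 2, with no expression filter and with centring per chromosome.

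Eno2 changed in opposite directions within the labels, at low levels. It was 1.80, 2.67 and 2.98 TPM in clone 15 and 0.914, 0.812 and 0.445 TPM in clone 22 (log2 difference -1.01, SE 0.22, adjusted p = 0.0454), then 0.319, 0.978 and 0.989 TPM in clone 17 and 2.08, 2.05 and 2.67 TPM in clone 42 (log2 difference 0.91, SE 0.22, adjusted p = 0.0158). The high clones were thus 15 and 42. The call between clones 15 and 22 was lost with a pseudocount of 0.1, quantile normalization, centring per chromosome and the replicate block, and without any single library other than clone 22 replicate 3 and clone 17 replicate 1, and that between clones 17 and 42 without clone 17 replicate 1 or clone 42 replicate 3. Egln3 was higher in clone 42 than in clone 17 (log2 difference 1.20, SE 0.17, adjusted p = 7.08e-04), and Ndrg1, a stress-responsive gene named here after its values were seen, was lower, at 46.3, 43.0 and 40.1 TPM against 101, 111 and 93.7 TPM (log2 difference -1.22, SE 0.18, adjusted p = 8.38e-04). Car9, which separated the 1151 groups, stayed at or under 2.36 TPM in all 12 libraries of line 2838.

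**Figure D4:**
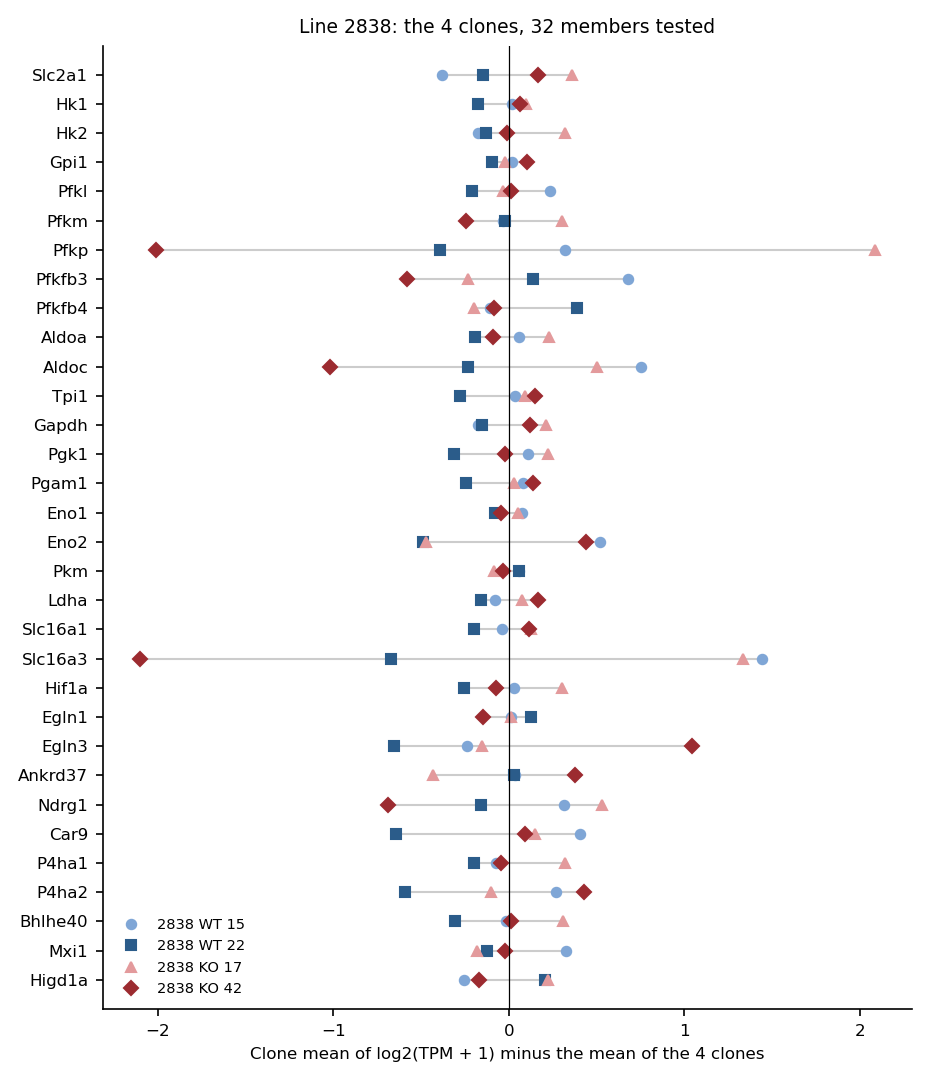
Mean log2(TPM + 1) of each 2838 clone minus the mean of the 4 clones, for the 32 members tested (circle and square, wild-type-labelled clones 15 and 22, triangle and diamond, knockout-labelled clones 17 and 42, each a mean of 3 libraries). For Pfkp the 2 knockout-labelled clones lie at opposite ends, for Slc16a3 and Aldoc clones 15 and 17 lie near each other with clone 42 at the lower end, while for Slc2a1 both lie to the right of both wild-type-labelled clones.

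Of the abundant members in 2838, some differed between clones. Gapdh had clone means of 3742 ± 599 TPM (clone 15), 3772 ± 320.5 TPM (clone 22), 4847 ± 93.8 TPM (clone 17) and 4551 ± 293 TPM (clone 42). Pkm had 2127 ± 173, 2133 ± 243, 1925 ± 13.4 and 2000.1 ± 181 TPM in the same order, and Eno1 1273 ± 192, 1136 ± 67.3, 1242 ± 32.8 and 1168 ± 133 TPM. Aldoa ranged from 762 to 1158 TPM over the 12 libraries. None of these 4 passed a clone-mean, within-label or F test. Tpi1, at 709.7 ± 63.6, 569 ± 14.6, 734 ± 13.1 and 767 ± 56.2 TPM in clones 15, 22, 17 and 42, and Pgk1, at 630.4 ± 54.4, 471 ± 42.3, 679 ± 14.9 and 576 ± 48.7 TPM, did differ among the clones by the F test (adjusted p = 0.0228 and 0.0155), both lowest in clone 22. Hif1a RNA had clone means of 63.3 ± 3.80, 57.3 ± 27.0, 76.7 ± 3.82 and 58.9 ± 2.54 TPM, the spread in clone 22 coming from its replicate 3 at 26.1 TPM against 74.6 and 71.1 TPM. The 17 enzyme members summed to 11898 ± 949 TPM in clone 15, 11071 ± 164 TPM in clone 22, 13098 ± 199.9 TPM in clone 17 and 12606 ± 977 TPM in clone 42. Pklr, left out of that sum, was 123 ± 45.7, 115 ± 63.9, 209 ± 35.5 and 151 ± 18.3 TPM in the same order.

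Whether a member changed differently in the 2 lines was tested as a difference of effects over the 6 group means. The test called 0 of 32 members (1.1% of all genes), with 5 at an unadjusted p under 0.05, against 14% of all genes. The 5 were Slc16a1 (log2 difference -1.22, SE 0.22, unadjusted p = 0.00557, adjusted p = 0.143), Car9 (log2 difference -3.31, SE 0.69, unadjusted p = 0.00893, adjusted p = 0.177), Egln3 (log2 difference -3.21, SE 0.83, unadjusted p = 0.0183, adjusted p = 0.239), Pfkfb3 (log2 difference 1.79, SE 0.51, unadjusted p = 0.0248, adjusted p = 0.272) and Ldha (log2 difference -0.70, SE 0.25, unadjusted p = 0.0487, adjusted p = 0.356). For Ldha the knockout-labelled libraries were all below the re-expressing ones in 1151 and all above the wild-type-labelled ones in 2838. After centring each library per chromosome 1 member passed, Car9. The lines differ in batch and in how Mcu was removed, and the 1151 controls are re-expressing while the 2838 controls are wild type, so these cannot be told apart from a difference between lines.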

How the data were processed

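The values deposited by the authors were TPM, for 35642 gene symbols in 18 libraries. The submitters' processing notes name Salmon, DESeq2 and the mm10 build. Versions and annotation were not given in the sources used here. TPM are scaled to one total per library, so depth is unknown and no counting interval was given. Groups, clones and batches came from the labels, and no 2 libraries held identical values.

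Values were tested as log2(TPM + 1) with limma 3.58.1 (R 4.3.3), variance trend and Benjamini-Hochberg adjustment over all genes with at least 1 TPM in at least 3 libraries of the fit. A gene was called where the adjusted p was under 0.05. On this scale changes of low genes are understated. Line 1151 was fitted over its 6 libraries. Line 2838 was tested on clone means, then over 12 libraries for each pair of clones. The difference between lines used the 6 group means. Isozyme shares used exact two-sided permutation tests (SciPy 1.17.1). The fit of 1151, the clone-mean and all-pairs tests of 2838 and the difference between lines were tried on simulated data. The F test, the comparisons within a label and the 1151 fit on 6 group means were not. The check in these trials that large changes were recovered did not cover the difference between lines. Gene positions came from GENCODE M21 and promoters from RefSeq (GRCm38.p6).

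The members and lists were chosen with earlier results of these data known. Named with full values are members past the threshold in 1151 with a log2 change of at least 0.5, those past a 2838 or between-line test, the 5 most abundant, Hif1a and both members of a described isozyme pair, and from each further list up to 3 called genes with the largest change in 1151. Some relatives of the members in the further lists are also named. Alternatives were another pseudocount (0.1), no filter or a mean of at least 5 TPM, 2 scalings, no trend, a block by replicate number, libraries or group means as the unit, and omission of each library or clone in turn. Centring per chromosome was added after seeing the data. An allele of the mice and a gene that this rule would name are not reported here. The replicate numbers were checked and do not pair the samples.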

Additional observations from a re-analysis of the deposited data

Results flagged for a closer look

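Ldha, lactate dehydrogenase A, is given here because its libraries separate by label in opposite directions in the 2 lines. In 1151 all 3 knockout-labelled libraries were below all 3 re-expressing ones (1393 ± 139 against 1913 ± 36.0 TPM, SD, n = 3), as for 29.8% of all genes. In 2838 all 6 knockout-labelled libraries were above all 6 wild-type-labelled ones, as for 3.53% of all genes. The gap in 2838 was only that between 1303 and 1316 TPM. Limma on clone means did not pass there (log2 difference 0.24, SE 0.21, unadjusted p = 0.275, adjusted p = 0.999). By limma only clone 42 against clone 22 passed among the knockout against wild-type clone pairs (log2 difference 0.32, adjusted p = 0.0477). The change in 1151 minus that in 2838 was -0.70 on the log2 scale, and the limma test of that difference did not pass (unadjusted p = 0.0487, adjusted p = 0.356). Of all genes, 14% had an unadjusted p under 0.05 in that test.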

How the results depend on the processing

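For the members called in line 1151 (21, 13 higher and 8 lower), the counts stayed within 1.5 times under every alternative except the fit of 6 group means, which takes its spread from the 2838 clones and called 0, with 0 higher and 0 lower. Single members lost their call as given with each of them, Hif1a most often. Ndrg1 turned from 0.14 to -0.35 with centring per chromosome. On 2838 clone means 0 members became 8 with 12 libraries as the unit (9.79% of all genes), 4 without clone 17 (3.42%) and 1 without clone 42 (2.3%), and Pfkp turned from 0.07 to -1.98 without clone 17. The all-pairs count of 0 became 1 with no filter (0.585% of all genes), 1 with quantile normalization (1.82%) and 1 with centring per chromosome (1.45%). It was 0 to 2 when single libraries were left out (0.553% to 3.88% of all genes). Without clones 15, 22, 17 and 42, where fewer pairs must agree, it was 1, 3, 4 and 2. The shares of all genes there were 1.66%, 11.2%, 3.75% and 2.1%. When single libraries were left out, clones 22 and 15 differed in 1 to 7 members and clones 42 and 17 in 5 to 14, the highest of both without clone 22 replicate 3. Of all genes, 0.726% to 6.86% and 9.88% to 41.5% were called in these fits. The difference between lines, 0 members, became 1 with centring per chromosome (2.44% of all genes) and 19 with 18 libraries as the unit (33.6%). The 7 isozyme shares kept their direction with 1 TPM added to each isozyme and without any single 1151 library. The summed TPM, recomputed under 1 alternative, was 3381 TPM higher in the knockout-labelled 1151 libraries, or 2667 with median-of-ratios scaling. Same-numbered libraries had correlations of their deviations between -0.15 and 0.20, so the numbers share no pairing. With the replicate block, 20 members were called in 1151 (12 higher, 8 lower, against 57.4% of all genes) and 0 in all pairs of 2838 (0.848%). It gave 2 between clones 22 and 15 (1.23%) and 7 between clones 42 and 17 (15.5%). No fit with fewer genes or libraries recovers depth, which TPM does not keep.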
